A study of Mus musculus with 21 samples.

Results

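The genes described here are 35 genes of macrophages and other myeloid cells, taken by name and read from mouse heart RNA on Affymetrix mouse genome arrays. All 35 had at least 1 probe set on the array, among 18193 genes with a probe set of a single symbol, and the brightest probe set stood for the gene. The arrays held 21 samples: 4 of wild-type mice after sham surgery, 6 of wild-type mice after transverse aortic constriction (TAC), 5 of G4D mice after sham surgery and 6 of G4D mice after TAC. G4D stands for gene-targeted mice with reduced levels of the cardiac transcription factor Gata4. The Gata4 transcript had log2 levels of 8.11 ± 0.15 (SD, n = 4) in wild-type and 7.85 ± 0.09 (SD, n = 5) in G4D mice after sham surgery, and of 7.80 ± 0.23 and 7.97 ± 0.18 (SD, n = 6 each) after TAC. In limma's fit over all tested genes the difference of G4D from wild type was -0.25 ± 0.12 (SE, adjusted p = 0.611) after sham surgery and 0.17 ± 0.10 (SE, adjusted p = 0.556) after TAC, so the transcript did not separate the genotypes, which are called here by their labels. Whether its probe set lies in the altered part of the gene is not given in the sources used here. In TAC a ligature narrows the aortic arch, which puts the left ventricle under pressure overload, and in sham surgery the aorta was left alone. Age, sex, strain background and the time from surgery to sampling were not given in the sources used here, and the allele of the G4D mice was not described beyond its reduced Gata4 level. The source label names cardiac myocytes, but markers of fibroblasts, endothelium and leukocytes were read above the filter in every group, and whether cells were isolated was not stated. Of the 35 genes, 34 passed the filter on low levels (a mean log2 level of at least 4.35 over all arrays), and Itgam, the alpha chain of the CD11b integrin, did not (mean 2.74). In such bulk RNA, fewer cells of a type and less RNA per cell cannot be told apart.

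Macrophages reside in the heart from before birth and are joined by cells that arise from blood monocytes when the tissue is injured or overloaded. They take up dead cells and debris through scavenger, Fc and complement receptors, digest them in lysosomes, and release factors that act on fibroblasts and vessels. Their identity depends on the transcription factor PU.1, encoded by Spi1, and on signalling through the colony-stimulating factor 1 receptor, encoded by Csf1r.

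Of the 35 genes, 25 had at least 1 promoter entry in RefSeq (GRCm38.p6, 300 bases from 250 before to 50 after the transcription start), 30 entries in all. The 6 letters GAGGAA, a core recognised by PU.1 and other Ets factors, were found on either strand in 19 of the 30 entries (63.3%), against 9289 of all 32851 promoter entries (28.3%). The longer GAGGAAGT, which contains that core, occurred in 4 entries (13.3%), against 3.2% of all entries. The letters TTC and GAA with 4 bases between them are a spacing read by some STAT factors. They were present in 6 entries (20%), overlapping entries of Clec7a among them, against 6.95% of all. These are matches of letters and not measured binding. Spi1, Adgre1, C1qa, Itgb2, Msr1, Tyrobp, Csf1r, Cd14, Lyve1 and Cd52 had no entry. The 4 promoters printed belong to 3 genes that rose after TAC and to Retnla, which fell, and capitals mark GAGGAA or GAGGAAGT on either strand in the first 3, and GAGGAAGT and the STAT-type letters in Retnla.
Ctss, chr3:95526536-95526835, plus strand: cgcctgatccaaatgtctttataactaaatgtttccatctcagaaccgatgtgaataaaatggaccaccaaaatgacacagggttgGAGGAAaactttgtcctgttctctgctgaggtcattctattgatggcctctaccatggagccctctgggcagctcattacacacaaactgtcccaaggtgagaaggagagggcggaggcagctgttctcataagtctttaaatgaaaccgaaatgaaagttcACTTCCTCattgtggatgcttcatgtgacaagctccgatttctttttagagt
C1qc, chr4:136892865-136893164, minus strand: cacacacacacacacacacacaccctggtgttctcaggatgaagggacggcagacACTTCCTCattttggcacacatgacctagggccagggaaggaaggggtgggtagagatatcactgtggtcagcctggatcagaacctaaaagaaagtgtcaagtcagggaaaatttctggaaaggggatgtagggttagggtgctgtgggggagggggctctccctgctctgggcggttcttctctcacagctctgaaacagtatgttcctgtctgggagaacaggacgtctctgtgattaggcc
Cd68, chr11:69666121-69666420, minus strand: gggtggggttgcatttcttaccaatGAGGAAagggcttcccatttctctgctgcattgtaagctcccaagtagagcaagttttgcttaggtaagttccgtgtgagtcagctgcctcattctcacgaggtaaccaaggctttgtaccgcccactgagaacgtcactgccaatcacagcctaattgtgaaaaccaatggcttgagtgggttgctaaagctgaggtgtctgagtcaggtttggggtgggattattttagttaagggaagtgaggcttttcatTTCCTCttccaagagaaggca
Retnla, chr16:48842359-48842658, plus strand: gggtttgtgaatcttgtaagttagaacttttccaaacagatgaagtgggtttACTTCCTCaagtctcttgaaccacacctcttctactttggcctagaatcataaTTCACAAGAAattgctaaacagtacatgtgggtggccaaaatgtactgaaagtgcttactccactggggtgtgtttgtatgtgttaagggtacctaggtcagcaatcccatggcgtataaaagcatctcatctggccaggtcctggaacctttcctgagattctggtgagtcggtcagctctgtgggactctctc
Ctss and Cd68 each carried 2 matches of the core, and the only match in C1qc was the longer form. In Retnla the longer form and the STAT-type spacing both lay upstream of the transcription start.

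All levels below are log2 values normalised by quantiles, and changes are log2 fold changes with their standard error from limma. A gene is said to rise or fall only where the Benjamini-Hochberg adjusted p over all 13279 tested genes was under 0.05. The mean level over the 34 tested genes was 6.38 to 6.52 in the wild-type sham samples and 6.65 to 7.34 in the wild-type TAC samples. In G4D it was 6.13 to 6.47 after sham surgery and 6.57 to 7.09 after TAC. The sham and TAC samples therefore did not overlap in either genotype, with the highest value in wild-type TAC sample 4. The sham group means were 6.45 ± 0.07 (SD, n = 4) and 6.33 ± 0.14 (SD, n = 5), and the TAC group means 6.99 ± 0.23 (SD, n = 6) and 6.81 ± 0.17 (SD, n = 6), wild type first.

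After TAC, 18 of the 34 tested genes rose in wild-type hearts and 21 rose in G4D hearts. In wild type the background was 7.35% of all tested genes called, 5.19% higher and 2.16% lower, and 1 gene of the list, Retnla, was lower. In G4D the background was 22.5%, with 13.2% higher and 9.32% lower, and Retnla and Spi1 were lower, though Spi1 stood at 0.11 with the values as deposited. The median change over the 34 genes was 0.66 in wild type, against -0.02 over all genes, and 0.57 in G4D, against -0.02. Wild-type TAC and sham samples did not overlap for 16 genes that were higher (6.36% of all genes) and 1 that was lower (4.12%). In G4D the same held for 12 higher genes (6.73%) and 1 lower gene (3.38%). The genes called higher in both genotypes numbered 17, with Itgb2 called in wild type alone, Cx3cr1, Adgre1, Ccr2 and Cybb in G4D alone, and 12 genes in neither. This split is that of the main fit, and with the mean of all probe sets Ccr2 was called in wild type too.

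**Figure D1:**
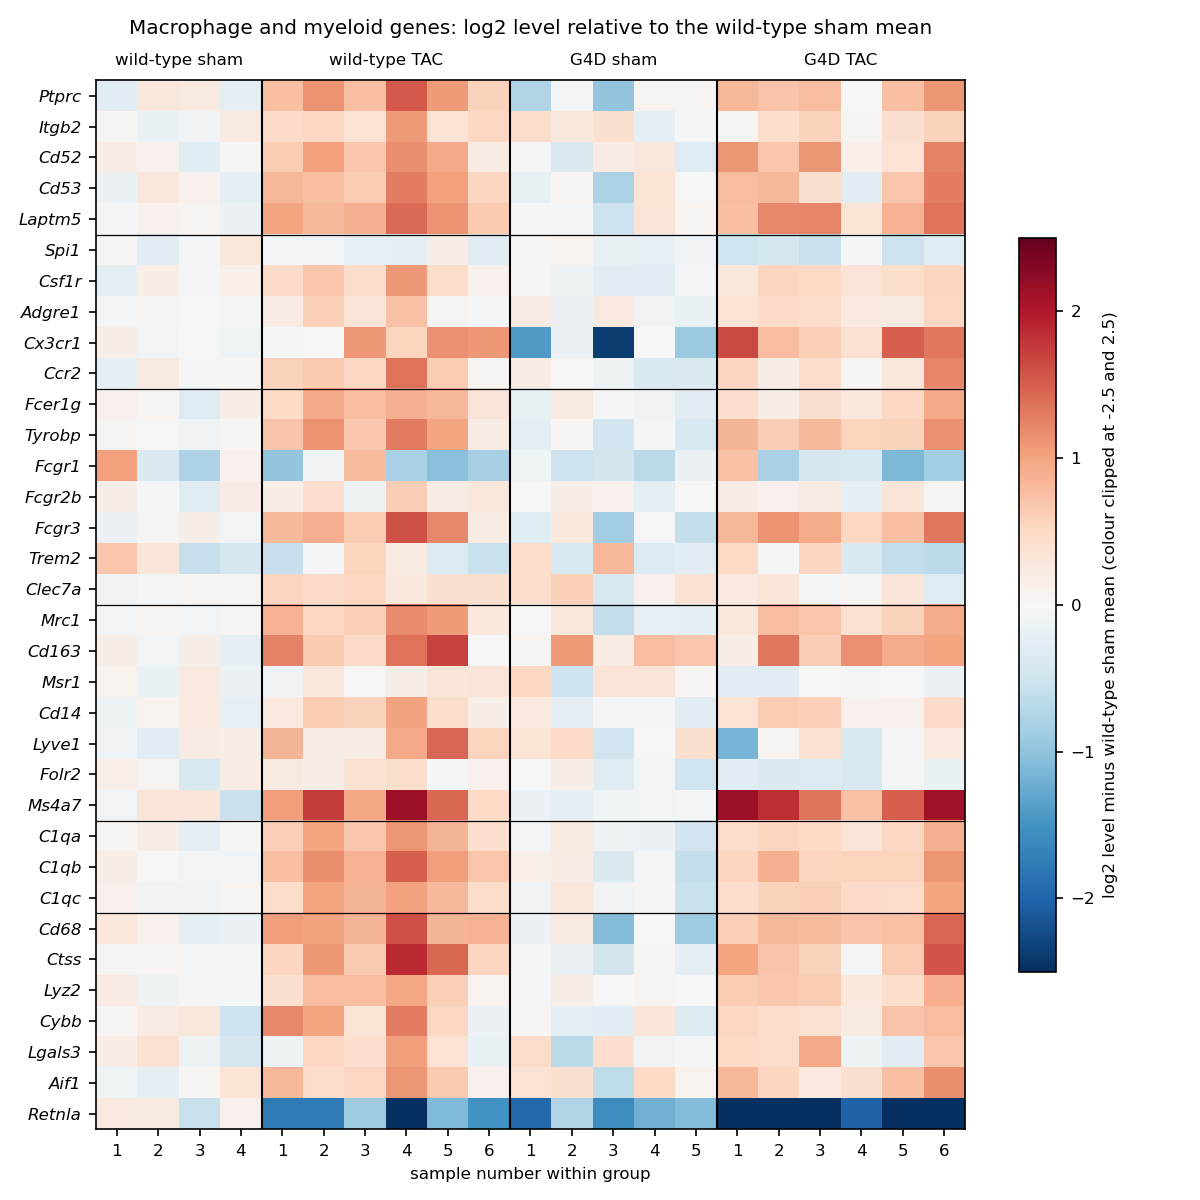
Heat map of the 34 tested genes (rows, grouped by role with lines between roles) in the 21 samples (columns, by group and sample number), each cell the log2 level minus the wild-type sham mean of that gene. Most rows are red in both TAC groups, with wild-type TAC sample 4 the darkest, and Retnla is blue in both TAC groups and in the G4D sham group, darkest after TAC in G4D.

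Genes of the general leukocyte membrane rose together. All 5 tested members of this role were higher after TAC in wild type, and 4 of 5 in G4D. Laptm5, a lysosomal membrane protein of blood cells, was read at 5.99, 6.15, 6.11 and 5.90 in the wild-type sham samples and at 6.70 to 7.45 (median 6.97) after TAC. Its levels in G4D were 5.98, 5.99, 5.51, 6.35 and 6.08 after sham surgery and 6.38 to 7.39 (median 7.07) after TAC. Every TAC sample stood above every sham sample of its genotype, although the lowest G4D TAC sample, at 6.38, was next to the highest sham sample, at 6.35. On its brightest probe set Laptm5 rose 1.97-fold in wild-type hearts (0.98 ± 0.18, adjusted p = 0.00185) and 2.02-fold in G4D hearts (1.01 ± 0.17, adjusted p = 0.000191). Its other probe sets, from brighter to dimmer, measured 0.73 ± 0.17, 0.57 ± 0.16, 0.03 ± 0.32 and 0.29 ± 0.23 in wild type. In G4D they measured 0.70 ± 0.16, 0.56 ± 0.15, 0.04 ± 0.30 and 0.43 ± 0.21. Both the size of the Laptm5 rise and whether one was seen thus depended on the probe set. Ptprc, the CD45 phosphatase found on all leukocytes, rose by 0.96 ± 0.23 and 1.03 ± 0.22. Cd52 and Cd53, a small glycoprotein and a tetraspanin of leukocytes, rose by 0.77 ± 0.21 and 0.84 ± 0.23 in wild type and by 0.82 ± 0.20 and 0.74 ± 0.22 in G4D. Their wild-type calls were kept in 14 and 15 of the 21 fits with a sample left out, and in 5 of 9 and 4 of 8 other settings. A second Cd53 probe set, below the filter (mean level 2.52), went the other way, at -0.90 ± 0.37 in wild type and -0.24 ± 0.34 in G4D. Itgb2, the common beta chain of the leukocyte integrins, rose in wild type (0.55 ± 0.15, adjusted p = 0.0302). This call was kept in 17 of those 21 fits and in 4 of 9 other settings. It measured 0.18 ± 0.14 in G4D (adjusted p = 0.396), and the 2 changes differed by -0.37 ± 0.21 (adjusted p = 0.681), so that no difference between genotypes was detected. With the values as deposited, Itgb2 was called in G4D (0.59, adjusted p = 0.0475 in limma) and not in wild type (0.47, adjusted p = 0.756). Itgam, its partner chain, lay between 0.57 and 3.84 over all samples and was not tested.

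The lineage factor and the receptors that define macrophages and monocytes gave a mixed picture. Csf1r was read at 8.93, 9.31, 9.14 and 9.29 in wild-type sham samples and at 9.27 to 10.25 (median 9.63) after TAC. In G4D its levels were 9.12, 9.04, 8.91, 8.88 and 9.12 after sham surgery and 9.44 to 9.71 (median 9.63) after TAC. The wild-type groups overlapped through 1 TAC sample, sample 6, and the G4D groups were apart. Csf1r rose by 0.54 ± 0.13 (adjusted p = 0.0157) and 0.58 ± 0.12 (adjusted p = 0.00193). Adgre1, which encodes the F4/80 antigen of mouse macrophages, rose in G4D (0.36 ± 0.12, adjusted p = 0.0348), a call kept in 14 of the 21 fits with a sample left out, and measured 0.32 ± 0.13 in wild type (adjusted p = 0.158). Spi1 was not higher after TAC in either genotype. Its change was -0.10 ± 0.12 in wild type and -0.32 ± 0.11 in G4D (adjusted p = 0.0459), but the call in G4D was kept in only 7 of the 21 fits with a sample left out and in 3 of 9 other settings. The change in G4D was -0.10 after median centring and turned to 0.11 with the values as deposited.

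Cx3cr1, the fractalkine receptor carried by resident macrophages and patrolling monocytes, rose after TAC in G4D from sham levels that in 3 of 5 samples were below the filter level. Its levels in G4D sham samples were 3.18, 4.45, 2.22, 4.59 and 3.66, and after TAC they ran from 4.98 to 6.25 (median 5.64). Wild-type sham samples were read at 4.75, 4.53, 4.61 and 4.49, and wild-type TAC samples at 4.54 to 5.74 (median 5.42). The G4D groups were apart, the wild-type groups overlapped, and G4D sham samples 1, 3 and 5 lay below every other sample. The rise in G4D was 2.01 ± 0.35 on the log2 scale (adjusted p = 0.000287). The G4D sham mean, 3.62 ± 0.97 (SD, n = 5), lay under the filter level of 4.35, which the gene passed through the other groups, so the size of the rise is uncertain and no fold is given. The change in wild type was 0.63 ± 0.37 (adjusted p = 0.377). The 2 changes differed by 1.38 ± 0.51, which had an adjusted p of 0.425 in limma. A second, dimmer probe set of Cx3cr1 (mean level 3.60) measured 0.41 ± 0.52 and -0.01 ± 0.49 and did not repeat the rise. Ccr2, the receptor that brings monocytes from the blood, measured 0.63 ± 0.21 in wild type (adjusted p = 0.0785) and rose by 0.59 ± 0.20 in G4D (adjusted p = 0.0383). A second Ccr2 probe set of nearly the same mean level (4.97, against 4.98) measured 1.52 ± 0.24 and 1.03 ± 0.23. A dimmer one that passed the filter (4.44) measured 0.30 ± 0.20 and -0.03 ± 0.19. The remaining probe set, below the filter (4.10), measured 0.58 ± 0.26 and 0.17 ± 0.25, so both the presence and the size of a Ccr2 rise depended on the probe set. The brightest probe set was chosen again in each fit with a sample left out, and it was not the same one in all of them. The G4D call was kept in 16 of these 21 fits, with changes from 0.43 to 1.03 over the fits. Some of these fits also called Ccr2 in wild type, at 1.60 (adjusted p = 0.00135 in limma) without wild-type sham sample 2. So did the mean of all probe sets, at 0.76 (adjusted p = 0.00202) in wild type.

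**Figure D2:**
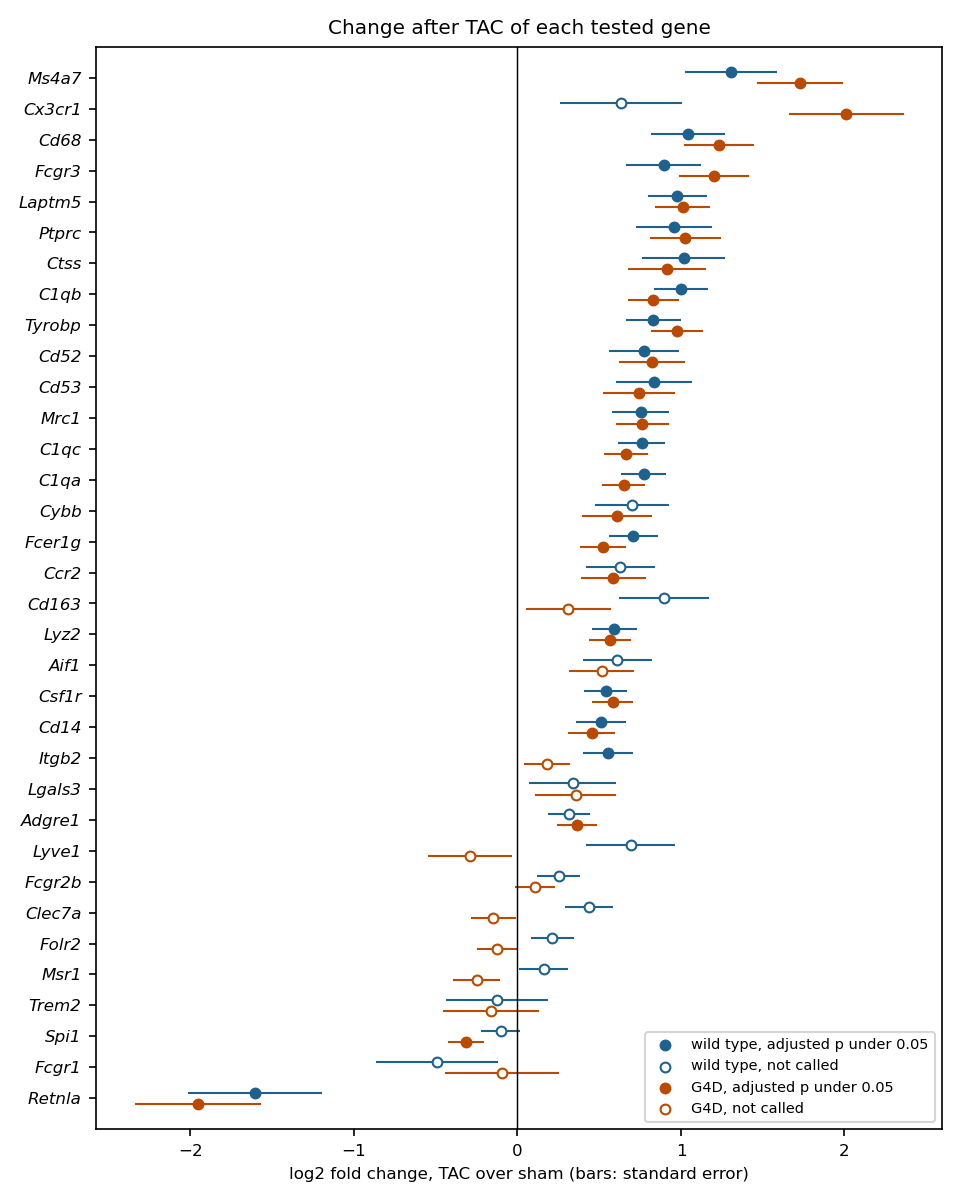
Log2 fold change of TAC over sham for the 34 tested genes in wild type (blue) and G4D (orange), ordered by the mean of both, with standard errors as bars and filled points for adjusted p under 0.05. Most genes lie between 0.5 and 1.3 in both genotypes, with Cx3cr1 at 2.01 in G4D and Retnla at -1.61 and -1.96.

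Among the Fc receptors, their signalling partners and the glycan receptors, 3 of 7 genes rose in each genotype, the same 3 in both. Tyrobp, the DAP12 adaptor through which many myeloid receptors signal, was read at 6.91, 6.84, 6.76 and 6.89 in wild-type sham samples and at 7.03 to 8.14 (median 7.71) after TAC. The G4D levels were 6.61, 6.90, 6.37, 6.82 and 6.47 after sham surgery and 7.41 to 8.0 (median 7.57) after TAC. The sham and TAC groups were apart in each genotype. Tyrobp rose by 0.83 ± 0.17 (adjusted p = 0.00399) and 0.98 ± 0.16 (adjusted p = 0.000141). Fcgr3, an activating IgG receptor, rose by 0.89 ± 0.23 and 1.20 ± 0.21, and Fcer1g, the common gamma chain it needs, by 0.71 ± 0.15 and 0.52 ± 0.14. Fcgr2b, the inhibitory IgG receptor, measured 0.25 ± 0.13 and 0.11 ± 0.12 on its brightest probe set, while a nearly as bright one (6.41, against 6.44) measured 0.69 ± 0.17 and 0.60 ± 0.16. Fcgr1, the high-affinity IgG receptor, measured -0.49 ± 0.37 and -0.09 ± 0.35 on its brightest probe set and 0.25 ± 0.16 and 0.37 ± 0.15 on its dimmer one. Trem2, a lipid-sensing receptor that signals through Tyrobp, measured -0.12 ± 0.31 and -0.16 ± 0.29. Clec7a, the beta-glucan receptor Dectin-1, measured 0.44 ± 0.15 in wild type (adjusted p = 0.0828), where its groups did not overlap, and -0.15 ± 0.14 in G4D.

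Of the 7 scavenger and tissue-resident receptors, 3 rose in each genotype. None was lower in the main limma fit, also not at an unadjusted p under 0.05. Ms4a7, a tetraspan membrane protein of macrophages, rose in both. It was read at 5.01, 5.39, 5.37 and 4.52 in the wild-type sham samples and at 5.57 to 7.22 (median 6.31) after TAC. The G4D sham samples lay close together at 4.93, 4.85, 4.97, 5.0 and 5.04, and the G4D TAC samples at 5.80 to 7.22 (median 6.74). No TAC sample reached down to a sham sample in either genotype. Ms4a7 rose 2.47-fold in wild type (1.31 ± 0.28, adjusted p = 0.00611) and 3.31-fold in G4D (1.73 ± 0.26, adjusted p = 8.11e-05), and its dimmer probe set measured 1.08 ± 0.35 and 1.99 ± 0.33. Mrc1, the mannose receptor CD206, rose by 0.75 ± 0.17 and 0.76 ± 0.16. Cd14, the co-receptor for bacterial lipopolysaccharide, rose by 0.51 ± 0.15 (adjusted p = 0.0463) and 0.46 ± 0.14 (adjusted p = 0.0264), but its wild-type call was lost in 10 of the 21 fits with a sample left out, with adjusted p up to 0.147. Cd163, the haemoglobin scavenger receptor, measured 0.90 ± 0.28 in wild type, which missed the threshold at an adjusted p of 0.0525, and 0.31 ± 0.26 in G4D. Msr1, a scavenger receptor for modified lipoproteins, measured 0.16 ± 0.15 and -0.25 ± 0.14. It was called lower in G4D when G4D sham sample 2 was left out (-0.41, adjusted p = 0.0137 in limma). The RNA quality covariate given further below also made it lower there (-0.51, adjusted p = 0.0485 in limma).

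Lyve1 and Folr2 are a hyaluronan receptor and a folate receptor that mark resident macrophages along vessels. In the main fit they did not pass the test for TAC in either genotype. Lyve1 was read at 6.09, 5.90, 6.39 and 6.34 in wild-type sham samples and at 6.35 to 7.64 (median 6.88) after TAC. In G4D it was read at 6.52, 6.65, 5.71, 6.17 and 6.58 after sham surgery and at 5.02 to 6.57 (median 6.20) after TAC. The groups overlapped in both genotypes. TAC changed Lyve1 by 0.69 ± 0.27 in wild type, with an adjusted p of 0.146, and by -0.29 ± 0.26 in G4D, with an adjusted p of 0.448, and their difference was -0.98 ± 0.37 (adjusted p = 0.433). Lyve1 was, however, called lower after TAC in G4D when G4D TAC sample 3 was left out (-0.49, adjusted p = 0.0283 in limma). Folr2 changed by 0.21 ± 0.13 in wild type and by -0.12 ± 0.12 in G4D. Lyve1 is also a marker of lymphatic endothelium.

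The 3 chains of complement C1q, which tissue macrophages secrete and which tags dying cells for uptake, rose in both genotypes. C1qb was read at 8.20, 8.07, 7.98 and 7.98 in wild-type sham samples and at 8.75 to 9.56 (median 9.01) after TAC. In G4D it was read at 8.19, 8.24, 7.69, 8.02 and 7.47 after sham surgery and at 8.59 to 9.16 (median 8.62) after TAC. Its groups were apart in each genotype, as were those of C1qa and C1qc. The rises in wild type were 0.77 ± 0.14, 1.00 ± 0.17 and 0.76 ± 0.15 for C1qa, C1qb and C1qc. In G4D they were 0.65 ± 0.13, 0.83 ± 0.16 and 0.67 ± 0.14. The 3 chains thus changed by like amounts, as did the C1qb probe sets that were not used (1.09 and 1.18 in wild type).

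Among lysosomal and other effector genes, the lysosomal ones rose. Cd68, a lysosomal membrane protein used to stain macrophages, was read at 5.87, 5.70, 5.34 and 5.44 in wild-type sham samples and at 6.43 to 7.20 (median 6.53) after TAC. In G4D it was read at 5.44, 5.82, 4.50, 5.58 and 4.70 after sham surgery and at 6.18 to 7.04 (median 6.34) after TAC. The groups did not overlap, and G4D sham samples 3 and 5 were the lowest. Cd68 rose 2.06-fold in wild type (1.04 ± 0.23, adjusted p = 0.00665) and 2.35-fold in G4D (1.23 ± 0.21, adjusted p = 0.000268). Ctss, the cysteine protease cathepsin S, lay between 7.30 and 7.38 in the wild-type sham samples and rose by 1.02 ± 0.25 and 0.91 ± 0.24. Lyz2, the lysozyme of macrophages and neutrophils, rose by 0.59 ± 0.14 and 0.57 ± 0.13. Cybb, the catalytic subunit of the phagocyte NADPH oxidase, measured 0.70 ± 0.23 in wild type (adjusted p = 0.0683) and rose by 0.61 ± 0.21 in G4D (adjusted p = 0.0454), a call lost in 11 of the 21 fits with a sample left out. Lgals3, the galactose-binding lectin galectin-3, measured 0.34 ± 0.26 and 0.36 ± 0.25. Aif1, the actin-bundling protein Iba1, measured 0.61 ± 0.21 (adjusted p = 0.0914) and 0.51 ± 0.20 (adjusted p = 0.0693).

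Retnla was the exception of the list. It encodes a secreted resistin-like protein, RELM-alpha, which macrophages make when alternatively activated by interleukin-4 or interleukin-13. Wild-type sham samples were read at 6.66, 6.65, 5.86 and 6.53, and wild-type TAC samples at 3.83 to 5.53 (median 4.79). G4D sham samples were read at 4.46, 5.67, 4.85, 5.23 and 5.35, and G4D TAC samples at 1.57 to 4.41 (median 3.32). Within each genotype every TAC sample was below every sham sample, and every G4D sham sample was also below every wild-type sham sample. Retnla fell 3.04-fold after TAC in wild type (-1.61 ± 0.41, adjusted p = 0.0196). The G4D change was -1.96 ± 0.39 on the log2 scale (adjusted p = 0.000928). The G4D TAC mean, 3.15, lay under the filter level of 4.35, which the gene passed through the other groups, so the size of differences from that group is uncertain and no fold is given for them. The call in wild type was lost when TAC sample 4 or any of sham samples 1, 2 and 4 of that genotype was left out, with adjusted p between 0.0525 and 0.0652, and the call in G4D was kept whichever single sample was left out. The wild-type call was also lost with the RNA quality covariate given further below.

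**Figure D3:**
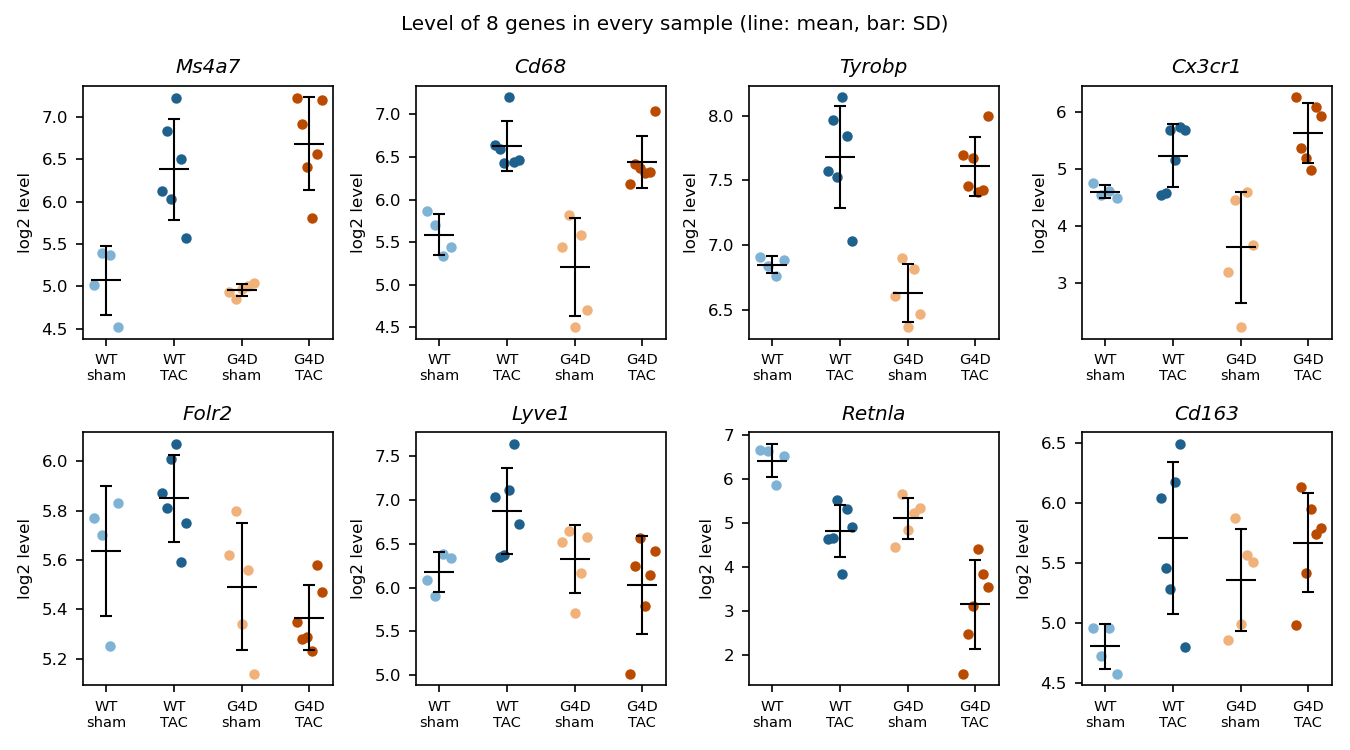
Log2 level of 8 genes in each of the 21 samples by group (WT, wild type), with the group mean as a line and the SD as a bar; the vertical scale differs between panels and starts above 0. Ms4a7, Cd68 and Tyrobp are higher in each TAC group without overlap, Retnla is lower, Folr2 is lower in G4D TAC than in wild-type TAC, and Cx3cr1, Lyve1 and Cd163 are spread within groups.

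The genotypes, as labelled, were compared after sham surgery, without pressure overload. No gene of the 34 was called in limma, against 0.0527% of all tested genes (0.0301% higher and 0.0226% lower), and 2 had an unadjusted p under 0.05 (8.09% of all genes). The median change of G4D over wild type was -0.09, against -0.01 over all genes. Retnla measured -1.31 ± 0.43 (adjusted p = 0.353), and it alone of the list had groups that did not overlap (1.66% of all genes were lower and 1.24% higher without overlap). Cx3cr1 measured -0.98 ± 0.39 (adjusted p = 0.493) and Cd163 0.55 ± 0.29 (adjusted p = 0.664).

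After TAC, 2 genes were lower in G4D than in wild type and none was higher, against 1.26% and 2.1% of all tested genes (3.36% in either direction). The median change was -0.16, against -0.01 over all genes, and 10 of the 34 changes were above 0. Retnla was lower (-1.66 ± 0.37, adjusted p = 0.0136), with levels of 4.82 ± 0.60 (SD, n = 6) in wild type and 3.15 ± 1.02 (SD, n = 6) in G4D, the latter under the filter level, that overlapped. Its call was kept whichever single sample was left out. Folr2 was read at 5.59 to 6.07 (median 5.84) in wild type and at 5.23 to 5.58 (median 5.32) in G4D. These groups did not overlap, although the nearest samples were at 5.59 and 5.58, and 0.836% of all genes were lower and 1.75% higher without overlap. Folr2 was 1.40-fold lower (-0.48 ± 0.12, adjusted p = 0.0251), and the call was lost when any of TAC samples 1, 3 and 4 of wild type or 1, 2 and 3 of G4D was left out, with adjusted p between 0.0508 and 0.0637. In sham samples Folr2 was 5.77, 5.70, 5.25 and 5.83 in wild type and 5.62, 5.80, 5.34, 5.56 and 5.14 in G4D, which overlapped. Lyve1 measured -0.84 ± 0.24 (adjusted p = 0.0652) on its brightest probe set and -0.72 ± 0.14 (adjusted p = 0.0161 among all probe sets) on a second probe set of nearly the same level (6.34, against 6.37). Lyve1 was also called with the mean of both probe sets, at -0.78 (adjusted p = 0.012).

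Whether the response to TAC itself differed between genotypes was tested by the interaction. No gene of the 34 was called in limma, against 0.0151% of all tested genes, and 3 had an unadjusted p under 0.05 (8.36% of all genes). These were Cx3cr1 at 1.38 ± 0.51, Lyve1 at -0.98 ± 0.37 and Clec7a at -0.58 ± 0.20 (adjusted p = 0.389). Taken with its sign, the log2 change after TAC was higher in G4D than in wild type for 13 of the 34 genes. The wild-type and G4D comparisons with sham share no samples, but each shares samples with the comparisons between genotypes.

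The samples within a group differed in many of these genes at once. Wild-type TAC sample 4 was the highest of its group in 24 of the 34 genes and sample 6 the lowest in 21. Among G4D TAC samples, sample 6 was the highest in 18 genes and sample 4 the lowest in 17. Without wild-type sham sample 1, 11 genes instead of 19 were called in wild type after TAC, and without wild-type TAC sample 6, 23 were. In G4D the number ran from 18, without G4D sham sample 5, to 23. With the values as deposited, without quantile normalisation, 2 of the 34 genes were called in wild type, Ms4a7 and Retnla, and 24 in G4D.

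Genes that work with these receptors were read from lists outside the 35. For every such list the background after TAC was 5.19% of all tested genes higher and 2.16% lower in wild type. In G4D it was 13.2% higher and 9.32% lower. Of 20 tested genes of phagocyte signalling and cytoskeleton, 6 rose in wild type and 11 in G4D, where 1, Dock2, fell. Plek, the platelet and leukocyte protein pleckstrin, rose by 1.11 ± 0.22 and 1.30 ± 0.21, and Lcp1, the leukocyte actin-bundling protein L-plastin, by 1.03 ± 0.20 and 1.03 ± 0.19. Fermt3, the integrin activator kindlin-3, measured 0.75 ± 0.28 in wild type and rose by 1.38 ± 0.26 in G4D. Of 3 tested partners of the NADPH oxidase, 1 rose in each genotype, the small GTPase Rac2 (0.49 ± 0.11 and 0.58 ± 0.11). Of 16 lysosomal genes, 5 rose in wild type and 7 in G4D, led by the protease gene Ctsz (0.89 ± 0.12 and 1.05 ± 0.11) and the glucuronidase gene Gusb (0.77 ± 0.13 and 0.89 ± 0.12). The lysosomal hexosaminidase gene Hexa was higher in G4D than in wild type after TAC (0.29 ± 0.07).

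Of 14 genes of dead-cell uptake and resident macrophages, 3 rose in wild type and 4 in G4D. Igf1, the growth factor, rose by 0.75 ± 0.20 and 1.15 ± 0.19 and was higher in G4D than in wild type after TAC (0.67 ± 0.18, adjusted p = 0.039). Which cells carried the Igf1 changes was not tested. Stab1, a scavenger receptor, rose by 0.55 ± 0.14 and 0.49 ± 0.13. Of 7 genes of alternative activation, the class to which Retnla belongs, 3 rose in wild type and 2 in G4D and none was called lower in limma, with 0 and 1 lower at an unadjusted p under 0.05. Ccl8, a chemokine, rose by 0.85 ± 0.16 and 0.44 ± 0.15, and Tgm2, a transglutaminase, by 0.50 ± 0.10 and 0.56 ± 0.10. Mgl2 and Clec10a, lectins of alternatively activated macrophages, measured 0.06 ± 0.19 and 0.02 ± 0.25 after TAC in wild type, and -0.13 ± 0.18 and 0.11 ± 0.23 in G4D. Retnla was thus the only gene called lower among those of this class that were tested. Between genotypes after TAC, 1 of the 7 listed genes was called higher in G4D and 0 lower, against 2.1% and 1.26% of all tested genes. The list median was -0.31, against -0.01 over all genes. At an unadjusted p under 0.05 in limma, 4 of the 7 were lower and 1 higher (13.4% of all genes in either direction).

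Of 14 macrophage growth factors, chemokines and receptors, none was called in wild type in limma, with 3 at an unadjusted p under 0.05 (19.9% of all genes). In G4D 3 rose and 1 fell, 28.6% of the list against 22.5% of all tested genes. No gene of this list was called in the interaction. Ccl12, a ligand of Ccr2, rose by 0.75 ± 0.13 in G4D, Mif by 0.66 ± 0.09 and Cxcr4 by 0.59 ± 0.17, and the chemokine-binding receptor Ccrl2 fell (-0.85 ± 0.14). After TAC, Csf1, a ligand of Csf1r, was lower in G4D than in wild type (-0.43 ± 0.11, adjusted p = 0.026) and Mif was higher (0.44 ± 0.09, adjusted p = 0.00799). Of 4 tested inflammatory cytokine genes none was called in limma in either genotype, 0 at an unadjusted p under 0.05, with Il1b at -0.12 ± 0.17 and -0.25 ± 0.16.

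**Figure D4:**
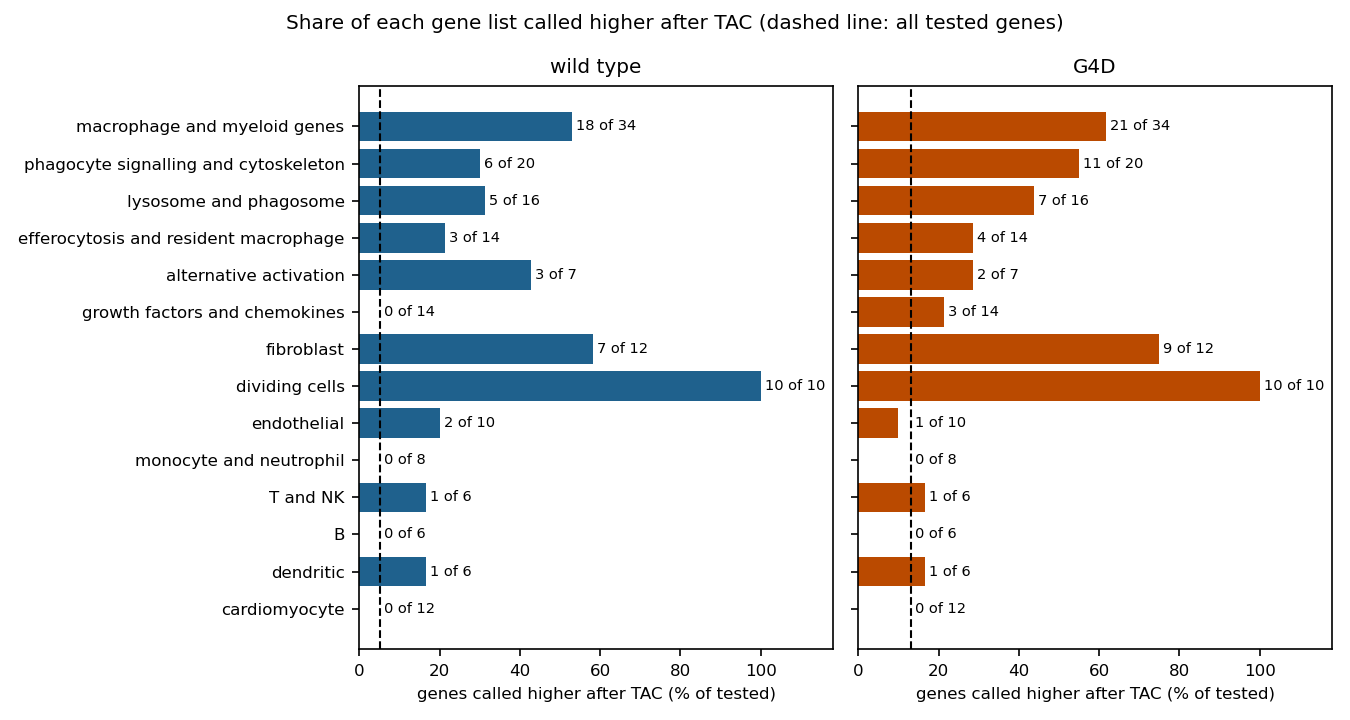
Share of the tested genes of each list called higher after TAC in wild type (left) and G4D (right), with the count beside each bar and the share over all tested genes as a dashed line (5.19% and 13.2%). The 35-gene list, the fibroblast list and the list of dividing cells stand far to the right of the dashed line in both panels, and the lists of neutrophils and B cells are at 0.

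Markers of other cells were read beside these results. Over all tested genes, 5.19% rose and 2.16% fell after TAC in wild type, and 13.2% rose and 9.32% fell in G4D. Of 8 tested monocyte and neutrophil genes none rose in limma, also not at an unadjusted p under 0.05, and Ngp fell in G4D. None of 6 B-cell genes was called in limma, with 1 lower at an unadjusted p under 0.05 in wild type and 0 in G4D. Of 6 genes of T and NK cells, Thy1, which fibroblasts also carry, rose in both genotypes, and Cd8a and Cd5 fell in G4D. Of 6 dendritic-cell genes, Fscn1 rose and Siglech fell in both genotypes, and Itgax fell in G4D. Fibroblast genes rose along with the myeloid genes, 7 of 12 in wild type and 9 of 12 in G4D, and the mean level of that list ran from 8.06 to 8.19 and from 8.68 to 9.54 in the wild-type sham and TAC samples and from 8.13 to 8.82 and from 9.14 to 9.91 in those of G4D. All 10 tested genes of dividing cells rose in both genotypes, with a mean level of 4.83 to 5.15 after sham surgery and 6.38 to 7.45 after TAC in wild type, and of 4.87 to 5.46 and 6.06 to 7.61 in G4D. After TAC, 3 of the 12 fibroblast genes were higher in G4D than in wild type and none was lower, against 2.1% and 1.26% of all tested genes. The median difference of the fibroblast list was 0.42, against -0.01 over all genes. The part of these other cells in the myeloid results, and in the Igf1 difference between genotypes, was not tested.

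The difference between the 3' and 5' probe sets of the actin control, a sign of RNA or labelling quality, was 0.52 ± 0.10 (SD, n = 4) and 0.32 ± 0.11 (SD, n = 6) in wild-type sham and TAC samples. In G4D it was 0.46 ± 0.10 (SD, n = 5) and 0.25 ± 0.08 (SD, n = 6), so that sham and TAC samples did not overlap in either genotype. With this difference as a covariate, an alternative chosen after seeing the data, 14 genes were called in wild type and 18 in G4D, and the medians were 0.83 and 0.79. Retnla was then at -1.28 in wild type and not called (adjusted p = 0.215 in limma). The median levels of the arrays as deposited ran from 4.31 to 5.33, and the correlation of a sample with the other samples of its group averaged was 0.969 or more. G4D sham sample 5 carried high levels of atrial genes (mean of the atrial list 10.1, against 6.75 in the lowest sample of its group). Nothing beyond the sample names says that the samples of a group came from separate animals, so p-values measure only the spread between these samples.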

How the data were processed

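RNA of 21 samples was measured on Affymetrix mouse genome arrays. The authors made the deposited values with PLIER, per the submitters' processing notes, which give no version. The deposited values are on a log2 scale, judged from the values, which run from -13.5 to 15.1, since no source states the scale or any background correction. Of 45101 probe sets, 64 controls were removed, and 34945 carried a single symbol, 932 several and 9160 none in the platform annotation. Values were quantile normalised between arrays, the brightest probe set was kept per gene, and genes whose mean reached the 40th percentile of all probe sets (4.35) were tested, 13279 of 18193. The 4 groups shared one fit in limma 3.58.1 (R 4.3.3) with 17 residual degrees of freedom, no covariates, two-sided tests and Benjamini-Hochberg adjustment over all tested genes. The fit was tested on simulated data. The number of arrays limits the precision.

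The text gives every sample's values for genes with the largest changes, for those called between genotypes, and for 1 to 3 genes of each role, and of other lists up to 3 called genes or 2 as values. The members and lists were chosen with earlier results of these data known. Of 219 genes in the other lists, 201 had a probe set. Same-numbered samples of different groups deviated together in some pairs and not in others (28 pairs, correlation of deviations -0.36 to 0.42, median -0.07, 9 pairs over 0.1). Differently numbered pairs were not compared, so this does not decide whether same-numbered samples share a batch. The labels give no pairing, and none was used in the main fit. Alternatives changed the filter, the normalisation, the probe sets, the variance model, the samples fitted and the replicate block, and left out each sample in turn. Each fit with a sample left out repeated the normalisation, the filter and the choice of probe set.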

Additional observations from a re-analysis of the deposited data

Results flagged for a closer look

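In the 140 sets of 1 gene in 1 group, 7 held a sample whose gap to the nearest other sample was large for the range of its group, and chance gives about 1 in 20. Ptprc in G4D TAC sample 4 was at 5.78, with the next sample at 6.49. Itgb2 in wild-type TAC sample 4 was at 8.37, with the next at 7.83. Cd68 was at 7.20 in the same sample, with the next at 6.64. In G4D TAC sample 6, Cd68 was at 7.04 (next 6.42) and C1qc at 8.96 (next 8.58). In wild-type sham sample 3, Retnla was at 5.86 (next 6.53) and Itgam, which was not tested, at 0.57 (next 3.0).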

How the results depend on the processing

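The median over the 34 genes stayed above 0 for TAC in both genotypes under each of the 30 alternatives, at 0.60 or more in wild type and 0.47 or more in G4D. Of the 19 genes called in wild type, 11 were called in every fit with 1 sample left out and 15 after median centring, and of the 23 in G4D, 17 and 22. The deposited values without quantile normalisation gave 2 calls in wild type, where 95 genes were called in all against 976, and 1 between genotypes after TAC. The medians were then -0.32 (genotypes, sham), 0.88 (TAC, G4D) and 0.36 (interaction), while all genes shifted by -0.28, 0.31 and 0.42, so that relative to all genes the interaction stood at -0.07. Spi1 in G4D turned to 0.11. Of all calls for TAC, 70.6% were higher in wild type and 58.6% in G4D, but 94.7% and 97.8% as deposited, 93.8% and 88.8% after median centring, and in wild type 90.1% with the actin covariate. Between genotypes after TAC the shares were 62.6%, 87.5% and 82.7% (main, as deposited, median centred). Median centring left 1 gene called there, Retnla. The replicate block, a pairing that the labels do not give, left 13 called in wild type, 20 in G4D and 1 between genotypes after TAC. With the actin covariate the median in G4D was 0.79. Leaving out 1 sample gave 11 to 23 calls in wild type, 18 to 23 in G4D, 1 to 3 between genotypes after TAC, and 0 for sham and the interaction. The medians then ran from -0.11 to -0.03 (sham), 0.61 to 0.73 (wild type), 0.47 to 0.62 (G4D), -0.23 to -0.07 (after TAC) and -0.15 to 0.04 (interaction, above 0 without wild-type TAC sample 4). The fit on only the groups compared was not run for the interaction. The cause of these changes was not tested. With 4 to 6 samples a group, the number of arrays limits which differences could be called.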
